A study of Mus musculus with 2 samples.

Results

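Transcripts of 10 genes of innate recognition were followed in heart allografts, namely the Toll-like receptors *Tlr1*, *Tlr2*, *Tlr3*, *Tlr4*, *Tlr7*, *Tlr8*, *Tlr9* and *Tlr13*, the co-receptor *Cd14* and the adaptor *Myd88*. They were chosen by name out of 22337 gene symbols, and all 10 were found. Hearts of male Bm12 mice, whose mutation alters the class II molecule I-A, were transplanted into male C57BL/6 (B6) recipients and taken at postoperative day (POD) 14. Hearts 1 to 3 came from Bm12 WT donors (IL-33+ grafts) and hearts 4 to 6 from Bm12 IL33 KO donors (IL-33- grafts), and all 6 recipients were B6 mice with their own IL-33. Cells of the density gradient interphase were marked with a hashtag for each heart and pooled into a single 10x 3' library, in which the authors annotated 14 cell types.

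Toll-like receptors bind microbial molecules and molecules released from damaged cells. TLR1, TLR2 and TLR4 sit at the cell surface, where TLR2 pairs with TLR1 or TLR6 to bind lipoproteins and TLR4 binds lipopolysaccharide that CD14 hands over with LBP and MD-2. TLR3, TLR7, TLR8, TLR9 and TLR13 sit in endosomes and bind nucleic acids. MyD88 links all of these receptors except TLR3 to IRAK kinases and NF-κB, and it also serves the IL-1 receptor family, to which the IL-33 receptor ST2 belongs. Monocytes, macrophages and neutrophils are the best known carriers of CD14 and the surface receptors, and fibroblasts and endothelial cells of the heart carry some of them.

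The data held 4441 cells, with 866, 230 and 1666 cells in IL-33+ hearts 1 to 3 and 836, 284 and 559 cells in IL-33- hearts 4 to 6. The UMIs of a heart (unique molecular identifiers, each marking a captured transcript) summed to between 908140 and 7012943, and a cell had between 1500 and 14977. Heart 2 was the thinnest library, with 10 macrophages, 5 monocytes, 4 monocyte-derived DCs (Mo-DCs) and 2 unconventional T cells. *Il33* itself, the targeted gene, was read in fibroblasts of the IL-33+ hearts at 24.3, 0 and 50.7 CPM (a cell's UMIs of the gene divided by all its UMIs, on the usual CPM scale) and in those of the IL-33- hearts at 32.6, 73.8 and 16.1 CPM. The 73.8 CPM of heart 5 rested on 3 UMIs in 4 fibroblasts and the 0 of heart 2 on 6 fibroblasts, whereas heart 3 had 121 UMIs in 270. The groups overlapped, so the 3' counts of *Il33* did not separate the grafts, and the groups below are those of the labels. Whether these 3' reads came from an intact transcript or from recipient cells was not tested.

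The 10 genes differed widely in how often they were read. *Cd14* gave 4300 UMIs, *Tlr2* 2201 and *Myd88* 1151. *Tlr13*, *Tlr7* and *Tlr4* gave 196, 194 and 181 UMIs, *Tlr1* and *Tlr3* gave 99 and 86, and *Tlr8* and *Tlr9* gave 19 and 13. *Cd14*, *Tlr2* and *Myd88* had a UMI in all 14 types, whereas *Tlr8* had a UMI in 5 types and *Tlr9* in 7. Of the Toll-like receptors outside the set, *Tlr6* gave 104 UMIs, *Tlr12* 43, *Tlr5* 17 and *Tlr11* 4. At this depth the level of a heart rested on few UMIs for most of the receptors.

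The genes lie on several chromosomes of GRCm38. *Tlr2* is at chr3:83836272-83841767 on the minus strand, *Tlr4* at chr4:66827584-66930284 on the plus strand and *Tlr1* at chr5:64924679-64933563 on the minus strand. *Tlr3* is at chr8:45395665-45411080 on the minus strand, and *Tlr9* and *Myd88* are at chr9:106222598-106226883 on the plus strand and chr9:119335934-119341411 on the minus strand. *Tlr13* is at chrX:106143204-106160493 on the plus strand, and *Tlr8* and *Tlr7* are neighbours on the minus strand at chrX:167242696-167264329 and chrX:167304929-167330558. Promoters of 7 of the 10 genes were in the RefSeq table. The upstream sequences of *Tlr2* and *Tlr13*, the receptors of the set with the largest share of UMIs in macrophages, monocytes and Mo-DCs, and of *Myd88*, read in every type, are shown for contrast. Each is the part of the RefSeq promoter window that precedes the first exon of the GENCODE models within that window, written 5′ to 3′ on the strand of the gene, with motif matches in capitals. The windows are chr3:83841768-83841858 (91 bases, minus strand), chrX:106143025-106143203 (179 bases, plus strand) and chr9:119340042-119340268 (227 bases, minus strand), and the last lies inside the annotated span of *Myd88*, whose longest model starts further upstream.
Tlr2: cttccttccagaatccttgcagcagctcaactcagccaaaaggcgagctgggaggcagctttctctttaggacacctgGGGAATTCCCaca
Tlr13: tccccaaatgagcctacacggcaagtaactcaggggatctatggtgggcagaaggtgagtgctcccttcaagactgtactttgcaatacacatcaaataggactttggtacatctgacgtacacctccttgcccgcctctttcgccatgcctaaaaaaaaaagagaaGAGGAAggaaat
Myd88: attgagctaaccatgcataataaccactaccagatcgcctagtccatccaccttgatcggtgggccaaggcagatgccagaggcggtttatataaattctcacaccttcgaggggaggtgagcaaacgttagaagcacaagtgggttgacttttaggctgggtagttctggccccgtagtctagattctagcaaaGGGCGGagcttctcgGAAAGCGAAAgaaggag

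The letters searched, on both strands, were GAGGAA (the core of PU.1 and other ETS sites), GGGA and CC parted by any 4 bases (an NF-κB type site), GAAA and GAAA parted by any 2 bases (an interferon regulatory factor type site), TGANTCA (AP-1) and GGGCGG (a GC box). For comparison, all promoter windows were cut to the same length from their 5′ end, which lies 250 bases before the RefSeq start. The cut windows of other genes therefore need not lie next to a first exon. The *Tlr2* window held a single match, of the NF-κB type, which 5.59% of the windows of its length held. The *Tlr13* window held a single match, the ETS core, found in 17.2% of windows of its length. The *Myd88* window held a GC box, found in 29.6% of windows of its length, and an interferon regulatory factor type match, found in 2.70%. The matches did not overlap, and they describe letters and not bound factors.

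*Cd14*, the lipopolysaccharide co-receptor, had the highest level of the set. To obtain a level, CPM was averaged over the type's cells within each heart and then over the 6 hearts, and CPM of 3' UMIs are not divided by transcript length because each transcript is counted once. Since the types were drawn from the same cells, levels across types are given as a description. Monocytes had 870 ± 223 CPM of *Cd14* (SD, n = 6 hearts), macrophages 784 ± 138 CPM, unconventional T cells 533 ± 162 CPM and Mo-DCs 501 ± 158 CPM. In order of level, each of these types overlapped with the next over hearts. Conventional DCs (cDCs) followed with 76.2 ± 47.0 CPM, and here the ranges parted, from 263 to 648 CPM in Mo-DCs and from 23.9 to 161 CPM in cDCs. Fibroblasts had 8.26 CPM, and the 8 lymphocyte types lay between 4.26 CPM in Tem/eff cells and 27.3 CPM in Tregs.

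After each cell was thinned to 1500 UMIs, 59.6% of monocytes and 51.1% of macrophages had a *Cd14* UMI, compared with 0.746% to 4.14% in the lymphocyte types, which do not carry CD14. Without thinning, *Cd14* was read in 348 of 429 macrophages (81.1%, exact Clopper-Pearson 95% interval 77.1 to 84.7) and in 20 of 263 Tregs (7.60%). The median depth was 6605 UMIs in macrophages and 2860 in Tregs. The share in lymphocytes was taken as the background for *Cd14*, and its source (free RNA, shared droplets or annotation) was not tested. For the genes below it is given for comparison, and it is no background for a gene that lymphocytes express themselves.

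*Tlr2*, the receptor of lipoproteins, was the most abundant Toll-like receptor, and 83.4% of its UMIs came from macrophages, monocytes and Mo-DCs. Its level was 515 ± 369 CPM in Mo-DCs, while monocytes had 461 ± 138 CPM and macrophages 441 ± 91.7 CPM, and these 3 types could not be ordered beyond the spread of the hearts. The highest Mo-DC hearts, heart 5 at 1198 CPM and heart 2 at 620 CPM, had 7 and 4 such cells. From UMIs summed over all cells, Mo-DCs stood at 262 CPM, monocytes at 537 CPM and macrophages at 375 CPM. The lowest heart of the 3 types, at 145 CPM, lay above the highest heart of the cDCs, at 66.3 CPM. Fibroblasts had 19.5 ± 10.3 CPM and the lymphocyte types 6.22 to 16.4 CPM. At 1500 UMIs a cell, 46.7% of monocytes, 36.0% of macrophages and 23.05% of Mo-DCs had a *Tlr2* UMI, against 0.983% to 1.74% in the lymphocyte types and 3.04% in fibroblasts.

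The ratio of *Tlr2* to *Cd14* UMIs was 0.477 in macrophages, 0.582 in monocytes and 0.72 over the 8 lymphocyte types together. Single lymphocyte types ran from 0.294 in B cells to 2.33 in Tem/eff cells, the latter on 21 and 9 UMIs. In fibroblasts 59 UMIs of *Tlr2* stood beside 25 of *Cd14*, a ratio of 2.36 that Tem/eff cells nearly matched. *Myd88* stood at 0.0823 UMIs per *Cd14* UMI in macrophages and at 3.29 over the lymphocyte types.

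*Tlr4*, the lipopolysaccharide receptor, was read far less than *Cd14* and *Tlr2*. Monocytes had 43.5 ± 32.2 CPM, Mo-DCs 18.5 ± 15.2 CPM, fibroblasts 17.3 ± 13.9 CPM and macrophages 12.1 ± 11.1 CPM, and all 4 ranges overlapped. Fibroblasts held 51 of the 181 *Tlr4* UMIs (28.2%), with a UMI in 46 of 375 cells. By heart, *Tlr4* in fibroblasts was 31.0, 0 and 20.3 CPM in hearts 1 to 3 and 23.4, 0 and 29.0 CPM in hearts 4 to 6. The hearts at 0 were those with 6 and 4 fibroblasts.

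*Tlr1*, which pairs with TLR2, had 14.9 ± 4.57 CPM in macrophages on 44 UMIs and 13.6 ± 12.7 CPM in B cells on 8. Unconventional T cells had 10.3 ± 14.9 CPM on 8 UMIs and Mo-DCs 10.1 ± 14.8 CPM on 7. At 1500 UMIs, 2.00% of macrophages, 1.97% of Mo-DCs, 1.59% of B cells and 1.38% of unconventional T cells had a UMI. *Tlr6*, the other partner of TLR2 and not a gene of the set, had 30.7 ± 21.3 CPM in Mo-DCs and 12.6 ± 5.09 CPM in macrophages.

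**Figure D1:**
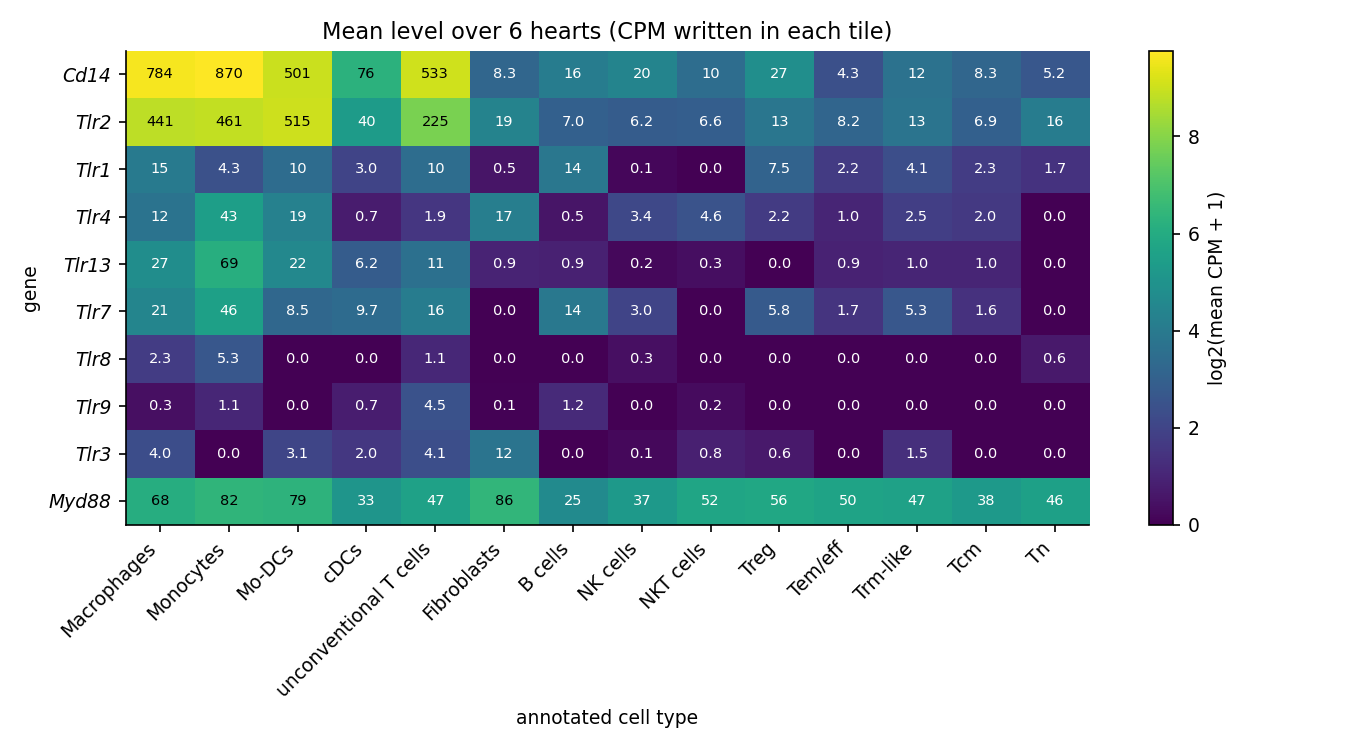
Heat map of the 10 genes (rows) in the 14 annotated cell types (columns). Colour is log2 of the mean CPM over 6 hearts plus 1, and the mean CPM is written in each tile. *Cd14* and *Tlr2* stand at 441 CPM or more in macrophages, monocytes and Mo-DCs, *Tlr3* is highest in fibroblasts at 12.5 CPM, and *Myd88* lies between 24.7 and 85.5 CPM in every type.

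Among the endosomal receptors, *Tlr13*, the mouse receptor of bacterial ribosomal RNA, was the most abundant in monocytes. By heart it was 60.0, 0 and 105 CPM in hearts 1 to 3 and 99.3, 107 and 43.2 CPM in hearts 4 to 6, a mean of 69.1 ± 42.8 CPM. Heart 2, at 0, had 5 monocytes. Macrophages had 27.0 ± 11.6 CPM and Mo-DCs 22.4 ± 25.4 CPM, and the lymphocyte types had at most 1.04 CPM. Macrophages, monocytes and Mo-DCs together held 84.2% of its UMIs, close to the 83.4% of *Tlr2* and the 84.1% of *Cd14*.

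*Tlr7*, the receptor of single-stranded RNA, was highest in monocytes at 46.2 ± 49.7 CPM. Macrophages had 20.7 ± 10.1 CPM, B cells 13.9 ± 13.0 CPM and cDCs 9.67 ± 11.1 CPM. It was not read in fibroblasts, in 0 of 375 cells, which allows up to 0.80% of cells with a UMI at this depth and sets no limit on cells that express it. Over all hearts pooled, 34 cells had UMIs of at least 3 of 5 plasmacytoid DC markers. In them *Tlr7* stood at 61.6 CPM and 29.4% of the cells had a UMI. *Tlr9*, also known from plasmacytoid DCs, gave 0 UMIs there, which allows up to 8.82% of cells with a UMI. *Tlr8*, the neighbour of *Tlr7* on the X chromosome, gave 10 of its 19 UMIs in macrophages and 4 in monocytes. *Tlr9*, the receptor of unmethylated DNA, gave 13 UMIs in 13 cells, too few to order the types.

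*Tlr3*, the receptor of double-stranded RNA that works without MyD88, showed another distribution. Fibroblasts held 61 of its 86 UMIs (70.9%), whereas macrophages, monocytes and Mo-DCs held 12.8%. Its level in fibroblasts was 18.6, 0 and 30.3 CPM in hearts 1 to 3 and 16.0, 0 and 9.82 CPM in hearts 4 to 6, so the 4 hearts with at least 30 fibroblasts all had reads. Heart 3, with 270 fibroblasts, gave 50 of the 61 UMIs. Hearts 1 and 6 gave 3 UMIs each, and the 5 UMIs of heart 4 came from 1 cell. At 1500 UMIs, 3.68% of fibroblasts had a *Tlr3* UMI, against at most 0.309% in a lymphocyte type and 0.419% in macrophages. Of the 375 fibroblasts, 69 had UMIs of at least 2 endothelial markers. With the cells of all hearts pooled, *Tlr3* stood at 29.3 CPM in these cells and at 24.8 CPM in the other 306. Its reads were thus not confined to the cells with at least 2 of these markers. The other 306 can include cells with a UMI of 1 marker, and whether endothelial cells were among them was not tested.

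*Myd88*, the adaptor, was spread most evenly. Fibroblasts had 85.5 ± 40.2 CPM, monocytes 82.1 ± 42.5 CPM, Mo-DCs 79.2 ± 78.7 CPM and macrophages 67.6 ± 29.9 CPM, and the lymphocyte types lay between 24.7 CPM in B cells and 55.7 CPM in Tregs. Each type overlapped with the next in order. At 1500 UMIs, 14.97% of fibroblasts and 13.4% of monocytes had a *Myd88* UMI, against 4.88% to 7.29% in the lymphocyte types. With the cells of all hearts pooled, fibroblasts with fewer than 2 endothelial markers had 123 CPM, and those with at least 2 had 74.6 CPM. Pooled values are not on the footing of the mean over hearts.

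**Figure D2:**
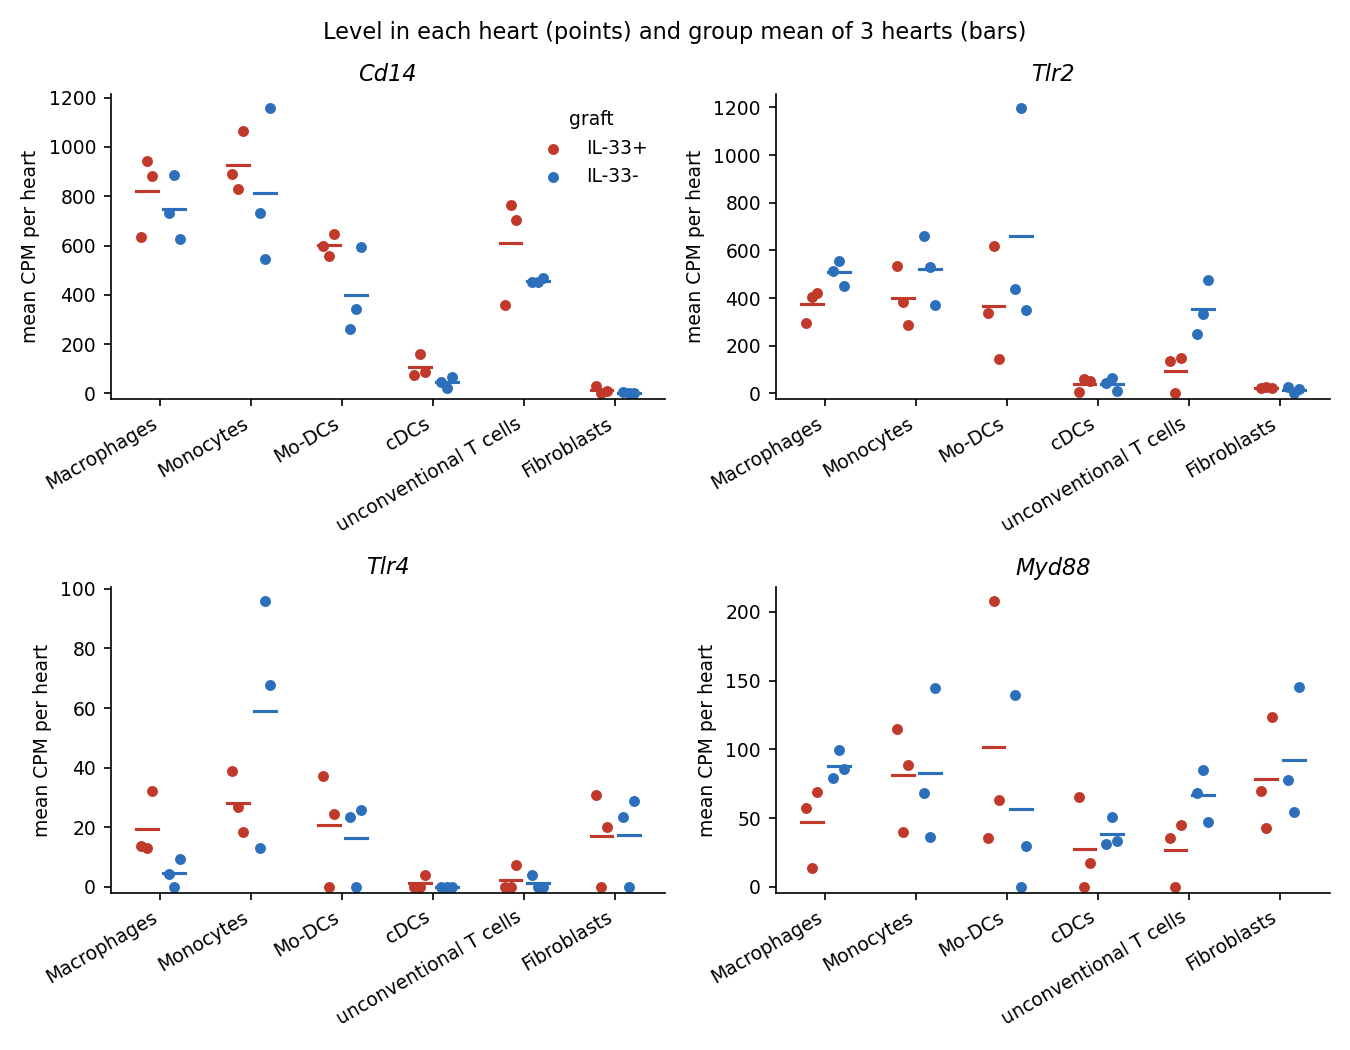
Level of *Cd14*, *Tlr2*, *Tlr4* and *Myd88* in each heart (points, mean CPM of the cells) in 6 cell types, with the mean of the 3 hearts of a group as a bar, IL-33+ in red and IL-33- in blue. In macrophages the 3 IL-33- hearts lie above the 3 IL-33+ hearts for *Tlr2* and *Myd88* and below them for *Tlr4*.

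Cells annotated as Mo-DCs were not uniform for these genes. Of 204 such cells, 44 had UMIs of at least 4 of 8 neutrophil markers (*S100a8*, *S100a9*, *Csf3r* and others). In these 44 cells *Cd14* stood at 1211 CPM and *Tlr2* at 522 CPM, compared with 393 and 217 CPM in the other 160. *Tlr13* stood at 102 and 18.4 CPM. At 1500 UMIs, 58.8% of the cells with neutrophil markers had a *Cd14* UMI and 36.2% a *Tlr2* UMI, against 27.8% and 19.4% of the others. *Tlr1* and *Tlr7* were not read in the 44 cells, which allows up to 6.82% of cells with a UMI, and *Myd88* stood at 50.7 CPM there and at 70.7 CPM in the others. The median depth was 1916 UMIs with neutrophil markers and 2378 without. These values pool the cells of all hearts and were not tested. By heart, *Cd14* ran from 389 to 3005 CPM with neutrophil markers and from 61.9 to 555 CPM without. *Tlr2* ran from 186 to 2980 CPM and from 133 to 618 CPM, so the ranges of both genes overlapped.

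**Figure D3:**
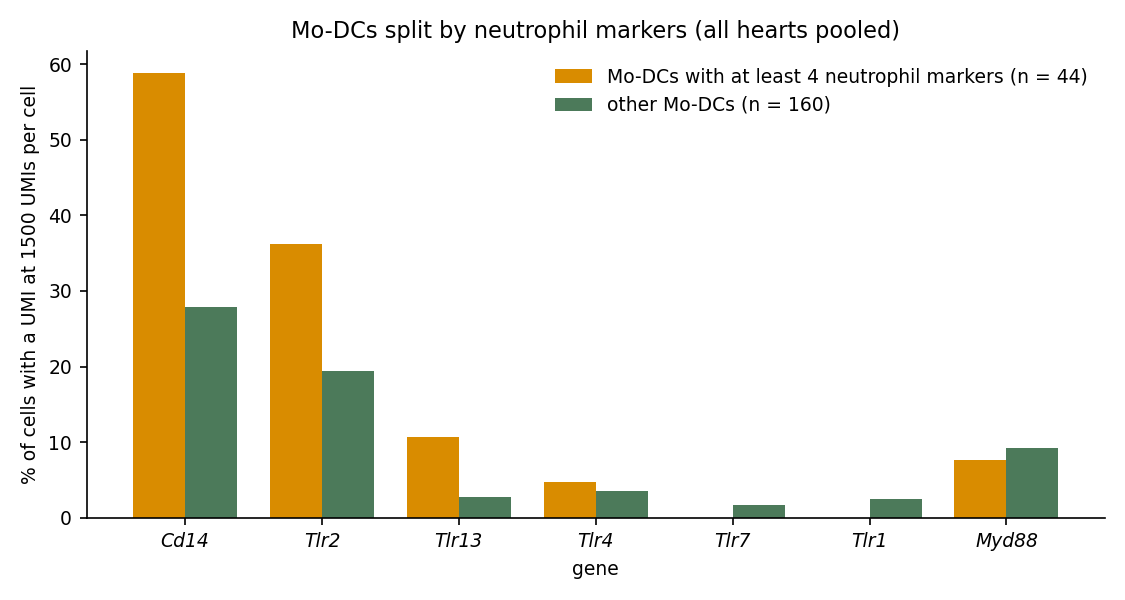
Share of cells with at least 1 UMI of a gene (y axis, percent of cells thinned to 1500 UMIs) in the 44 cells annotated as Mo-DCs that had at least 4 neutrophil markers and in the other 160, all hearts pooled. *Cd14*, *Tlr2* and *Tlr13* are higher with neutrophil markers, *Tlr1* and *Tlr7* were not read there, and *Myd88* is at 7.61% and 9.30%.

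The cells annotated as unconventional T cells had *Cd14* near the level of Mo-DCs, and *Tlr2* at 225 ± 168 CPM against 515 ± 369 CPM in Mo-DCs, with ranges that overlapped. Of these 83 cells, 52 had UMIs of at least 2 T cell and at least 2 macrophage markers. With the cells of all hearts pooled, *Cd14* stood at 470 CPM in the 52 cells and at 587 CPM in the other 31, and *Tlr2* at 207 and 174 CPM. Macrophage markers summed to between 2485 and 4941 CPM over the hearts in this type, and T cell markers to between 257 and 1228 CPM. The median depth of the type, 10175 UMIs, was the highest of the 14. Whether these droplets held a pair of cells was not tested.

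The genes whose level over the 14 types was most like that of each member are given as a description, with Pearson's r of log2(mean CPM + 10) over 14 types that share a library. For *Cd14* these were *Clec4a1* (r = 0.99), *Clec12a* (r = 0.99) and *Fth1* (r = 0.99). For *Tlr2* they were *Ccl6* (r = 0.99), *Bst1* (r = 0.99) and *Adap2* (r = 0.99), and for *Tlr13* *Gm9733*, *Sirpb1a* and *Hpgd* (r = 0.99, 0.98 and 0.98). The genes nearest to *Tlr4* were *Tmem43* (r = 0.95), *Mgst1* (r = 0.93) and *Dstyk* (r = 0.93), and those nearest to *Tlr7* were *Atp2b1*, *AI504432* and *Vapa* (r = 0.94, 0.94 and 0.93). *Tlr3* was nearest to *Ctnnd1*, *Rnf150* and *Slc39a10* (r = 0.96, 0.96 and 0.95), all 3 highest in fibroblasts. *Myd88* had no close partner, with *Dstn* at r = 0.87, *Ace* at 0.86 and *Plekhg1* at 0.86. *Tlr1* was nearest to *Atp6v1d*, *Snx5* and *Dnase2a* (r = 0.88, 0.86 and 0.85). For *Tlr8* (*Dmkn*, *Tfec*, *Spic*) and *Tlr9* (*2010315B03Rik*, *Slc2a9*, *H2-M2*) the likeness rests on 19 and 13 UMIs. Within the set, *Cd14* and *Tlr2* were most alike (r = 0.97), and *Tlr3* and *Tlr2* were at r = 0.29.

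The graft groups were then compared in each type, with the heart as the replicate (n = 3 against 3). The SE printed with a limma difference is moderated, so it borrows variance from other genes. It does not measure the spread of the hearts for that gene and can be smaller. Of the 140 pairs of a gene and a type, 55 had at least 10 UMIs and a UMI in at least 3 hearts and were tested. *Tlr9* was tested in no type, *Tlr1* and *Tlr8* in macrophages alone, and *Tlr3* in macrophages and fibroblasts. None of the 55 was called at an adjusted p of 0.05 or less, and over all genes and types 0.00884% were. At an unadjusted p of 0.05 or less there were 6, of which 3 were higher and 3 lower in IL-33+ grafts, against 4.71% of all tests. The 6 were *Tlr4* and *Myd88* in macrophages, *Cd14* in cDCs, *Tlr2* in unconventional T cells and *Myd88* in Tcm and Tn cells. Hearts of the groups did not overlap in 13 of the 55, against 9.82% of all tests. Over the 55, the median log2 difference was -0.12, compared with -0.00 over all tests.

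In macrophages, 9 of the 10 genes were tested, and the groups did not overlap for 3 of them. *Tlr2* was 295, 406 and 420 CPM in IL-33+ hearts and 513, 557 and 453 CPM in IL-33- hearts. Every IL-33- heart was above every IL-33+ heart, a log2 difference (IL-33+ minus IL-33-, on the scale of CPM + 10) of -0.45 (SE 0.22, limma unadjusted p = 0.054, adjusted p = 0.987). The UMIs behind it were 673 and 462. An exact two-sided permutation test of 3 against 3 hearts gave p = 0.1, the smallest it can give.

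*Myd88* had the same order in macrophages, at 57.6, 14.1 and 69.3 CPM in IL-33+ hearts and 79.2, 99.7 and 85.8 CPM in IL-33- hearts, again without overlap (log2 difference -0.95, SE 0.41, limma unadjusted p = 0.030, adjusted p = 0.987). The lowest value, that of heart 2, rested on 1 UMI in 10 cells, and without that heart the log2 difference was -0.42 (limma unadjusted p = 0.19). The unadjusted p was above 0.05 without heart 4, 5 or 6 as well. Lower levels without overlap were found for 5.15% of all genes in macrophages, and 2 of the 9 tested here showed it.

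*Tlr4* had the opposite order, with 13.6, 12.9 and 32.1 CPM in IL-33+ hearts and 4.32, 0 and 9.46 CPM in IL-33- hearts. The groups did not overlap (log2 difference 1.01, SE 0.46, limma unadjusted p = 0.039, adjusted p = 0.987), as for 3.82% of all genes in this direction. The values rested on 42 UMIs against 6. Without heart 3 the difference was 0.73 (limma unadjusted p = 0.19), and the unadjusted p was above 0.05 without heart 1, 4 or 5 as well. Across all genes in macrophages, 4.04% had an unadjusted p of 0.05 or less.

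*Cd14* did not separate the groups in macrophages, with 636, 945 and 881 CPM against 733, 887 and 626 CPM (log2 difference 0.13, SE 0.21, adjusted p = 0.991). The groups also overlapped for *Tlr1*, *Tlr3*, *Tlr7*, *Tlr8* and *Tlr13*, with limma unadjusted p from 0.17 to 0.92.

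Other markers differed between the groups in macrophages, and their part in these results was not tested. The 3 cDC markers (*Flt3*, *Zbtb46*, *Dpp4*) summed to 48.5 to 94.5 CPM in IL-33+ and 21.1 to 35.0 CPM in IL-33- hearts, with 3 of 3 higher in IL-33+. The 5 fibroblast markers summed to 235 to 329 CPM and 343 to 560 CPM, with 0 of 5 higher in IL-33+. Sums of 9 macrophage markers (4456 to 8667 and 5204 to 8513 CPM) and 4 monocyte markers (1520 to 1892 and 1758 to 2660 CPM) overlapped. Those of 8 neutrophil markers did as well, with 228 to 335 CPM in IL-33+ hearts and 252 to 2950 CPM in IL-33- hearts, where heart 5 alone was high. Defining markers of mast cells and basophils were at 0. The median depth of macrophages was 6244 to 6596 UMIs in IL-33+ and 6259 to 7121 UMIs in IL-33- hearts.

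In monocytes none of 6 tested genes had an unadjusted p of 0.05 or less. *Tlr2* was 533, 382 and 286 CPM in IL-33+ and 662, 530 and 373 CPM in IL-33- hearts, *Cd14* was 890, 828 and 1065 against 732, 546 and 1159 CPM, and all groups overlapped. *Tlr4* was 38.9, 27.0 and 18.3 against 12.9, 95.8 and 67.9 CPM, on 24 and 13 UMIs. Whether the graft difference was the same in macrophages and monocytes was tested on the difference within each heart. For *Tlr4* it was larger by 1.64 in macrophages (SE 0.79, limma unadjusted p = 0.068, adjusted p = 0.930) and for *Myd88* by -0.999 (SE 0.57, adjusted p = 0.930). *Cd14*, *Tlr2*, *Tlr7* and *Tlr13* had unadjusted p between 0.36 and 0.90, and limma called 0 of 7104 genes, with 294 at 0.05 or less before adjustment.

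**Figure D4:**
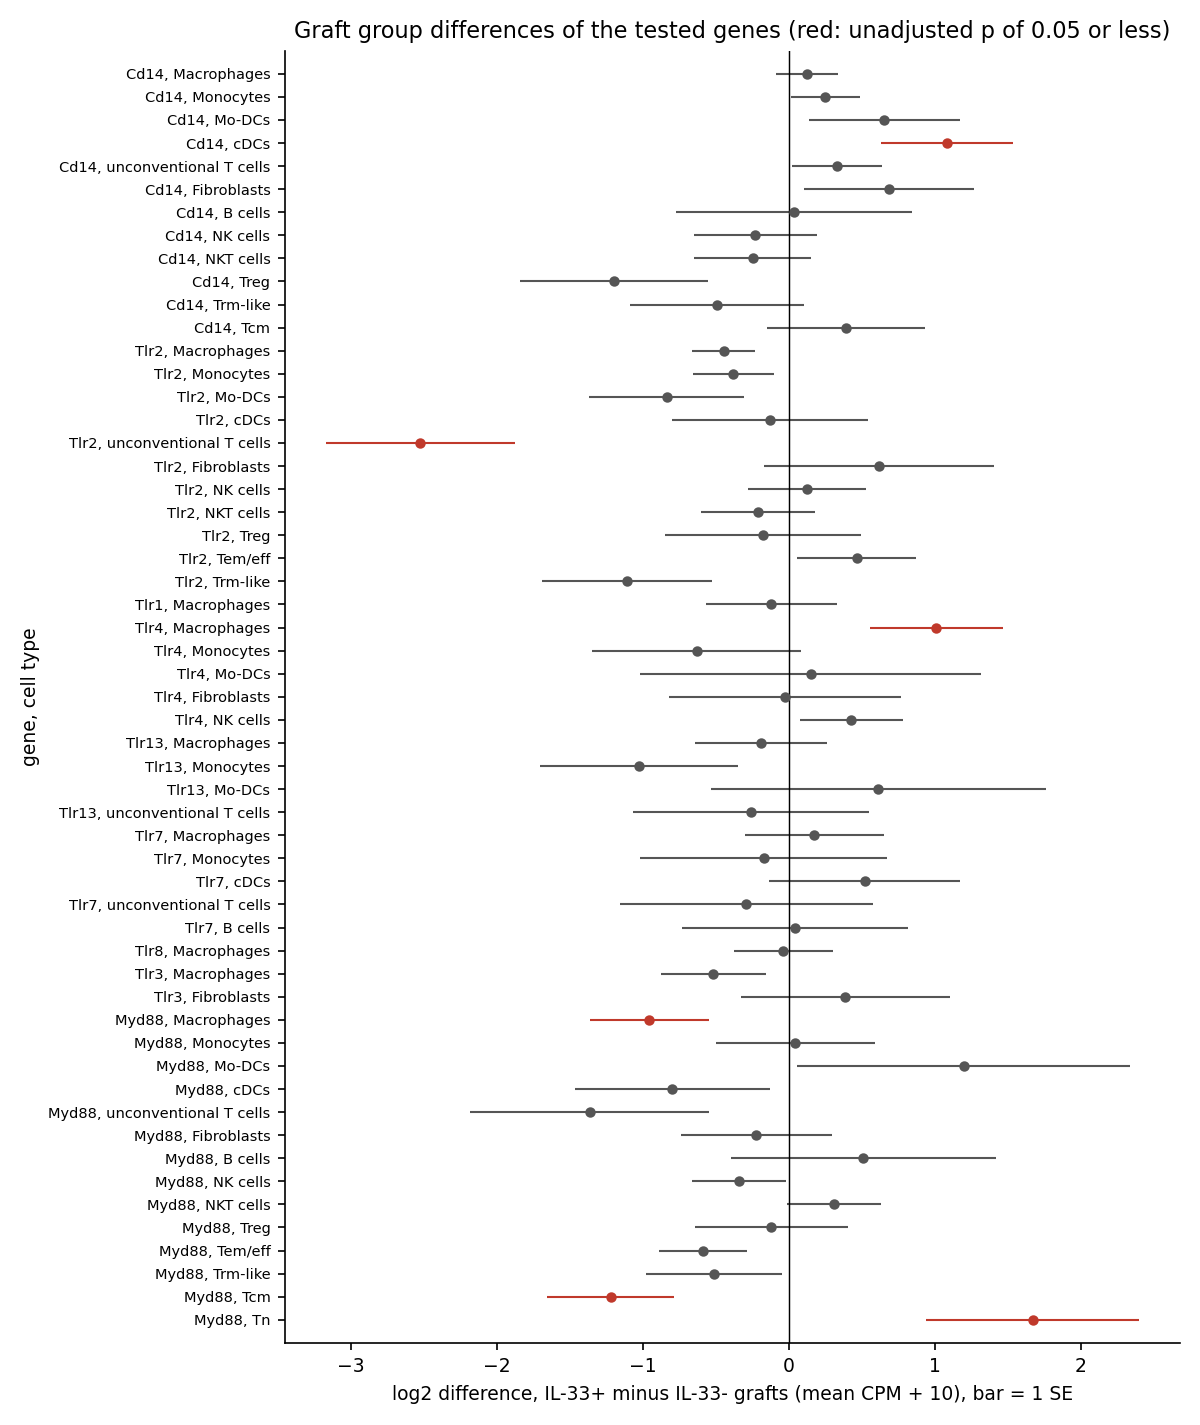
Log2 difference between IL-33+ and IL-33- grafts (x axis, mean CPM + 10, limma) for the 55 tested pairs of gene and cell type (y axis), with 1 moderated SE as the bar. The moderated SE borrows variance from other genes and is not the spread of the hearts. The 6 pairs with an unadjusted p of 0.05 or less are red, 3 on each side of 0, and none was called after adjustment.

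In cDCs *Cd14* was 74.1, 161 and 85.7 CPM in IL-33+ hearts and 45.1, 23.9 and 67.6 CPM in IL-33- hearts. The groups did not overlap (log2 difference 1.08, SE 0.45, limma unadjusted p = 0.029, adjusted p = 0.712). The values rested on 45 and 22 UMIs, and with hearts of under 10 cDCs left out the difference was 0.46 (limma unadjusted p = 0.23). Monocyte markers in cDCs overlapped (891 to 2276 and 957 to 1296 CPM), whereas 5 plasmacytoid DC markers summed to 1220 to 3012 CPM in IL-33+ and 287 to 933 CPM in IL-33- hearts, with 5 of 5 higher in IL-33+. T cell markers summed to 34.7 to 83.5 CPM and 0 to 27.7 CPM. The part of these markers in the result was not tested.

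In unconventional T cells *Tlr2* was 134, 0 and 150 CPM in IL-33+ hearts and 250, 335 and 478 CPM in IL-33- hearts. This was the largest difference of the set (log2 difference -2.52, SE 0.65, limma unadjusted p = 0.00046, adjusted p = 0.427). The value of 0 came from 2 cells, and without that heart the difference was -1.22. Left-out hearts also made the call, with limma adjusted p = 1.05e-05 without heart 1 and 0.00045 without heart 3, both fits keeping the heart at 0. With hearts of under 10 cells left out, which kept heart 4 alone of the IL-33- grafts, the difference was -0.78. Without cells that had both T cell and macrophage markers it was -0.83 (limma unadjusted p = 0.36). That fit also lost heart 2, which had no cells left, and hearts 5 and 6 kept 2 and 3 cells. The part of the mixed cells was therefore not separated from that of heart 2.

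*Myd88* was also tested in every lymphocyte type. In Tcm cells it was 15.8, 19.7 and 19.2 CPM in IL-33+ and 38.1, 51.3 and 86.0 CPM in IL-33- hearts, without overlap (log2 difference -1.22, SE 0.43, limma unadjusted p = 0.0073, adjusted p = 0.951), on 9 and 34 UMIs. In Tem/eff cells it was 43.4, 28.2 and 43.0 against 53.7, 61.2 and 70.5 CPM, also without overlap (log2 difference -0.59, SE 0.30, adjusted p = 0.998). In Tn cells the order was the opposite, with 52.3, 113 and 53.3 CPM in IL-33+ and 36.4, 0 and 22.3 CPM in IL-33- hearts (log2 difference 1.67, SE 0.73, limma unadjusted p = 0.028, adjusted p = 0.952), on 19 and 11 UMIs. The remaining differences without overlap were small or rested on few UMIs: *Tlr2* in Trm-like cells (-1.11), *Cd14* in Tregs (-1.19), *Tlr4* (0.43) and *Myd88* (-0.34) in NK cells and *Myd88* in unconventional T cells (-1.36).

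Whether the genes were read in the same cells was examined in macrophages and monocytes thinned to 1500 UMIs. Of 429 macrophages, 209 had a *Cd14* UMI and 220 had none. *Tlr2* stood at 484 ± 204 CPM (SD, n = 6 hearts) in cells with a *Cd14* UMI and at 379 ± 103 CPM in cells without, higher with *Cd14* in 4 of 6 hearts (mean log2 difference 0.30, SE 0.28, exact two-sided sign-flip permutation p = 0.34, adjusted p = 0.75 over 9 tests). *Myd88* stood at 77.0 ± 52.9 and 98.9 ± 72.3 CPM, higher with *Cd14* in 1 of 6 hearts (-0.25, SE 0.10, exact permutation p = 0.125, adjusted p = 0.75). In monocytes 4 hearts had enough cells, and *Tlr2* stood at 703 ± 322 CPM with *Cd14* and 558 ± 300 CPM without (exact permutation p = 0.25, where 0.125 is the smallest possible). The smallest p that 6 hearts allow is 0.031, so none of the 9 tests could reach an adjusted p of 0.05, and these values describe the hearts without deciding whether the cells differ.

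The other genes of the pathway, 62 in 8 lists, were compared in macrophages, monocytes, Mo-DCs, cDCs, B cells and fibroblasts. A single gene was called, *S100a8* in Mo-DCs, and the genes named below otherwise passed 0.05 before adjustment only. In macrophages 56 were tested and 4 had an unadjusted p of 0.05 or less, with 1 higher and 3 lower in IL-33+ grafts, against 4.04% of all genes there (median of the 56 -0.07, of all genes -0.05). In monocytes 6 of 50 did, 3 in each direction, against 4.87% of all genes there (median -0.29, of all genes -0.01). The 5 fibroblast markers summed to 203 to 211 CPM in IL-33+ monocytes and 29.95 to 160 CPM in IL-33- monocytes, with 5 of 5 higher in IL-33+, and their part in the monocyte differences was not tested. In Mo-DCs 8 of 45 did, 5 higher and 3 lower, against 3.49% (median 0.40, of all genes -0.01). In cDCs 7 of 46 did, against 6.79% of all genes (median 0.15, of all genes 0.06). In B cells 5 of 43 did, against 4.18% (median 0.27, of all genes 0.28). In fibroblasts 1 of 49 did, against 3.16% (median 0.02, of all genes 0.07). Adaptors other than MyD88 (*Tirap*, *Ticam1*, *Ticam2*, *Sarm1*) gave 0 such genes in the 6 types with limma, with 1 to 3 tested in a type. The other receptors also gave 0, with 2 tested in macrophages and 1 each in monocytes and Mo-DCs. None of them was tested in cDCs, B cells or fibroblasts. With so few tests, a count of 0 does not set these lists apart from the shares over all genes.

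Among co-receptors and chaperones, *Ly96*, which encodes the MD-2 subunit of the TLR4 complex, was 20.5, 0 and 16.8 CPM in IL-33+ macrophages and 30.5, 34.3 and 46.3 CPM in IL-33- macrophages (log2 difference -1.21, SE 0.50, limma unadjusted p = 0.024, adjusted p = 0.987). It ran against *Tlr4* itself in these cells. In monocytes *Ly96* was higher in IL-33+ grafts (1.56, adjusted p = 0.965) with overlap. *Cd36*, a scavenger receptor that works with TLR2, was 52.0, 15.2 and 232 CPM against 227, 368 and 169 CPM in macrophages, with overlap (-1.80, limma unadjusted p = 0.0025, adjusted p = 0.987). *Cd36* was higher in IL-33+ cDCs (1.91, adjusted p = 0.529) and, with overlap and 2 hearts at 0, fibroblasts (2.10, adjusted p = 0.998). *Cd180*, an inhibitory relative of TLR4, was lower in IL-33+ monocytes (-1.40, adjusted p = 0.965), and the chaperone *Hsp90b1* was higher in IL-33+ cDCs (0.45, adjusted p = 0.712).

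Of the genes induced by these receptors, *Il1b*, the cytokine IL-1β, was higher on average in IL-33+ macrophages, though the groups overlapped. It was 487, 523 and 1443 CPM against 365, 347 and 530 CPM (log2 difference 0.80, limma unadjusted p = 0.017, adjusted p = 0.987). *Cxcl10*, an interferon-induced chemokine, was lower there without overlap (194, 42.3 and 241 against 283, 299 and 257 CPM, -1.06, adjusted p = 0.987). Without heart 3 the difference of *Il1b* was 0.31 (limma unadjusted p = 0.19). In Mo-DCs 5 of 10 tested induced genes were at an unadjusted p of 0.05 or less, all higher in IL-33+ grafts. Of all genes there, 3.49% reached this p in either direction. Heart 2 had 4 Mo-DCs and heart 5 had 7. The 4 monocyte markers summed to 430 to 758 CPM in IL-33+ Mo-DCs and 1210 to 2156 CPM in IL-33- Mo-DCs, with 1 of 4 higher in IL-33+. Sums of the 8 neutrophil markers overlapped, at 2156 to 9564 CPM and 1621 to 74291 CPM, with 2 of 8 higher in IL-33+. The part of these markers in the differences was not tested. *Ptgs2*, the inducible cyclooxygenase, was 572, 1005 and 615 CPM against 59.6, 195 and 298 CPM (2.13, SE 0.56, adjusted p = 0.113) and *Il1b* was 649, 1972 and 2108 against 575, 413 and 347 CPM (1.66, SE 0.47, adjusted p = 0.230). *Ccl3* (2.13), *Ccl4* (0.99) and *Il1rn* (0.95) had adjusted p of 0.230 or more. *Il1rn*, the IL-1 receptor antagonist, was lower in IL-33+ monocytes (-0.91, adjusted p = 0.965) and cDCs (-1.56, adjusted p = 0.596), whereas *Ccl3* was higher in IL-33+ monocytes (1.87, adjusted p = 0.965).

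Endogenous ligands were led by *S100a8*, whose product is a TLR4 ligand and which neutrophils carry in bulk. In Mo-DCs it was 329, 3606 and 3162 CPM in IL-33+ and 35293, 11168 and 482 CPM in IL-33- hearts (log2 difference -1.88, moderated SE 0.42, limma adjusted p = 0.012), although the groups overlapped. The moderated SE and its p do not reflect the spread of these hearts, from 482 to 35293 CPM within the IL-33- group. The 8 neutrophil markers, of which it is one, summed to 2156 to 9564 CPM and 1621 to 74291 CPM in these cells, and once Mo-DCs with at least 4 neutrophil markers were left out the difference was -0.03 (limma unadjusted p = 0.98). Since *S100a8* is among the markers that chose the cells left out, that value is partly set by the choice. The difference was -0.58 without heart 4 and -0.77 without heart 1, and neither was called. *S100a9* (-0.99) and *Fn1* (-2.42) had adjusted p of 1.00 and 0.058. *Vcan* was higher in IL-33+ monocytes (1.22, adjusted p = 0.855), and *Hmgb1* in IL-33+ cDCs (0.54, adjusted p = 0.717).

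Signalling genes below MyD88 gave scattered differences. *Traf3*, a ubiquitin ligase of Toll-like receptor signalling, was 50.3, 0 and 71.5 CPM in IL-33+ and 77.5, 186 and 214 CPM in IL-33- monocytes (-2.10, SE 0.61, limma unadjusted p = 0.0012, adjusted p = 0.419), and with hearts of under 10 monocytes left out the difference was -0.999. In cDCs *Rel* (-0.75, adjusted p = 0.518) and *Irf5* (-0.72, adjusted p = 0.701) were lower in IL-33+ grafts without overlap, and *Ikbkg* was higher (1.30, adjusted p = 0.728). In B cells *Map3k7* was lower (-1.66) and *Ikbkb* (1.05), *Tab2* (1.02), *Tollip* (2.09) and *Nfkb1* (2.07) were higher in IL-33+ grafts, all at an adjusted p of 0.844. Heart 5 had 4 B cells, and *Nfkb1* and *Tollip* were at 0 in it.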

How the data were processed

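RNA of 6 hearts, pooled by hashtag, was aligned by the authors with Cell Ranger to mm10 (GRCm38) and filtered in Partek Flow 10.0.23.0425. The deposited values are log2(CPM + 1) per gene and cell, and the authors' files give each cell's type, hashtag and graft. The logarithm was undone, and whole UMIs were obtained by dividing each cell's values by its smallest step (within 0.05 of a whole number for 99.9% of low values). The hashtags 1 to 6 were tied to grafts by the labels. CPM was averaged per heart and type, 10 CPM were added, and log2 values were compared with limma 3.58.1 in R 4.3.3 (eBayes with trend) for genes that had 10 or more UMIs in the type, spread over 3 or more hearts. Calls required 0.05 or less after Benjamini-Hochberg adjustment over every gene tested in the type. Because the deposited unit is not a count, no count model was the main test. Single values were compared by exact permutation of hearts. Shares of cells with a UMI are expected shares after thinning each cell to 1500 UMIs. Doublets were filtered by the authors through limits on counts and genes per cell, and none were removed here in the main analysis. Intervals cover counting error only, and separate animals are taken from the hashtags. The named genes were all 10 members, the 3 genes nearest to each over the types (among those with at least 20 CPM in some type), and pathway genes at an unadjusted p of 0.05 or less in 6 types. Members and lists were chosen with earlier results of these data known. The fits were tested on simulated data. Other steps used numpy 2.4.6, pandas 2.3.3, scipy 1.17.1 and matplotlib 3.10.9 under Python 3.11.15. Alternatives changed the pseudocount, the summing of UMIs, the filter, the method, the scaling, the cells and the hearts.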

Additional observations from a re-analysis of the deposited data

How the results depend on the processing

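No paired analysis was possible because the labels number the hearts 1 to 3 in one group and 4 to 6 in the other, so that no number is shared. The count of members called was 0 in the main analysis and 1 with a pseudocount of 50 CPM, with no filter on low counts and with median rescaling, and it ranged from 0 to 1 when a heart was left out. The call was each time *Tlr2* in unconventional T cells, where heart 2 has 2 cells. The count at an unadjusted p of 0.05 or less was 6 and ranged from 2 (without heart 5) to 6 when a heart was left out, with 3 without heart 4. The level of *Cd14* in Mo-DCs fell to 323 CPM without cells with neutrophil markers, and that of *Tlr3* in fibroblasts was 25.5 CPM from UMIs summed over all cells. Of 603 values of 44 pairs of gene and type, 2 changed sign, both of *S100a9* in Mo-DCs. It was 0.47 without heart 4 and 1.38 without cells with neutrophil markers. A limma unadjusted p of 0.05 or less in the main fit was lost in 153 values, and one was gained in 7. Some of the 44 pairs were included only because their groups did not overlap, and these had no such p to lose. When a heart was left out, *S100a9* ranged from -2.37 to 0.47. In the comparison of macrophages with monocytes no member was called under the alternatives run. For cells with and without *Cd14* the exact test could not give a call, so its alternatives say nothing about stability. Depth limits the rarer receptors: pairs under 10 UMIs were not tested.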
